A study of Homo sapiens with 9 samples.

Results

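Messenger RNA levels of 38 genes for splicing factors and heterogeneous nuclear ribonucleoproteins (hnRNPs) were described in TC71 cells, a human line of Ewing sarcoma, after growth in mice. The genes were taken by symbol from a table of 34922 gene rows, and all 38 were found. Following their roles they were read in 4 sets, with 13 SR and SR-related proteins, 12 hnRNPs, 10 core spliceosome proteins and 3 other regulators. The bone marrow group held 4 libraries of metastatic cells, the lung group 4 libraries of metastatic cells and the primary group 1 library of the flank tumour. All groups came from the same line after 100 cells in Matrigel had been placed under the flank skin of NSG mice, and cells were sorted when tumours measured 1.5 cm. NSG mice lack lymphocytes of their own. The labels name no drug, engineered allele or animal age for any group, and do not say which libraries share a mouse, so the p-values below measure the spread between these libraries.

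Splicing removes introns from pre-messenger RNA. The U1 particle marks the 5′ splice site, the U2 particle with its SF3A and SF3B subunits marks the branch site, and PRPF8 lies at the catalytic centre. SR proteins, named for stretches of alternating serine and arginine, mostly favour the use of a nearby exon, whereas many hnRNPs favour skipping. In Ewing sarcoma the fusion protein EWSR1-FLI1 is itself known to bind splicing proteins and the helicase DHX9.

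Library totals lay between 11550000 and 17910000 estimated counts. Levels are given as CPM, counts scaled to a common library total after TMM adjustment. Reads assigned to mouse made up 7.0 to 8.09% in all 9 libraries. Of 14 genes typical of Ewing sarcoma cells, 12 passed the filter on low counts, and their summed level was 2478 to 3071 CPM in bone marrow, 2162 to 3279 in lung and 3382 in the primary library. FLI1, the 3′ partner of the fusion, was below 1 CPM in every library, as was NPY. TC71 cells carry that fusion, so the FLI1 value may not measure its expression, and whether counting or annotation lost its reads was not tested. Leukocyte markers summed to at most 17.3 CPM, with 8 of 12, among them CD3E and CD14, below 1 CPM in all libraries. Red cell genes summed to 17.2 to 111 CPM in bone marrow, 3.63 to 172 in lung and 8.05 in the primary tumour, and lung epithelium genes to 12.4 to 168 CPM in bone marrow, 4.57 to 119 in lung and 39.8 in the primary tumour, with SFTPC and SCGB1A1 below 1 CPM throughout. Stroma and bone genes summed to 99.4 to 350.3 CPM in bone marrow, 151.5 to 397 in lung and 281 in the primary tumour, and endothelium genes to 33.9 to 51.2 CPM in bone marrow, 28.97 to 48.55 in lung and 31.9 in the primary tumour. The highest lung epithelium sum, in bone marrow replicate 3, came mostly from KRT8 at 89.1 CPM and EPCAM at 77.7 CPM. Most of the stroma and bone sums came from DCN and LUM, and most of the endothelium sums from CDH5 and EGFL7. The counts are of human genes and the hosts were mice, so these sums are no measure of host tissue. The part of these cell types in the results was not tested. Bone marrow replicate 1 stood apart from the other bone marrow libraries. In it 45.5% of reads were assigned to protein-coding genes and 6.97% to no feature, against 50.8 to 52.2% and 3.08 to 4.39% in the other 3. These shares were 44.5 to 46.4% and 4.69 to 6.45% in lung, and 48.5% and 5.49% in the primary library. The protein-coding share of bone marrow replicate 1 thus lay within the lung range, and those of the other 3 lay above it. Bone marrow replicate 1 was the lowest of the 4 bone marrow libraries for 26 of the 38 genes. It was the lowest for 24% of all 17073 tested genes and for 43.5% of the 6126 genes whose log2 CPM averaged 4 or more, called the better expressed genes below. The main results that rest on it are given with and without it.

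The 38 genes together took 1.05, 1.55, 1.47 and 1.48% of the counts in bone marrow replicates 1 to 4, 1.28, 1.22, 1.15 and 1.28% in lung replicates 1 to 4 and 1.65% in the primary library. Bone marrow replicates 2 to 4 thus lay above every lung library, bone marrow replicate 1 lay below them all, and the primary library was the highest of the 9. Between these RNA pools, fewer cells of a type and less RNA per cell cannot be told apart. The hnRNP set took 0.392% of the counts in bone marrow replicate 1, against 0.665 to 0.681% in the other 3 bone marrow libraries and 0.512 to 0.550% in lung. HNRNPA1, a repressor of exons, had 569.6, 1876, 1437 and 1784 CPM in bone marrow replicates 1 to 4, 1581, 1339, 1895 and 1269.7 in lung and 1550.5 in the primary library, so that bone marrow replicate 1 lay far below the other 8. Of the 38 genes, 16 had their lowest value of all 9 libraries in bone marrow replicate 1 and 11 had their highest in the primary library.

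**Figure D1:**
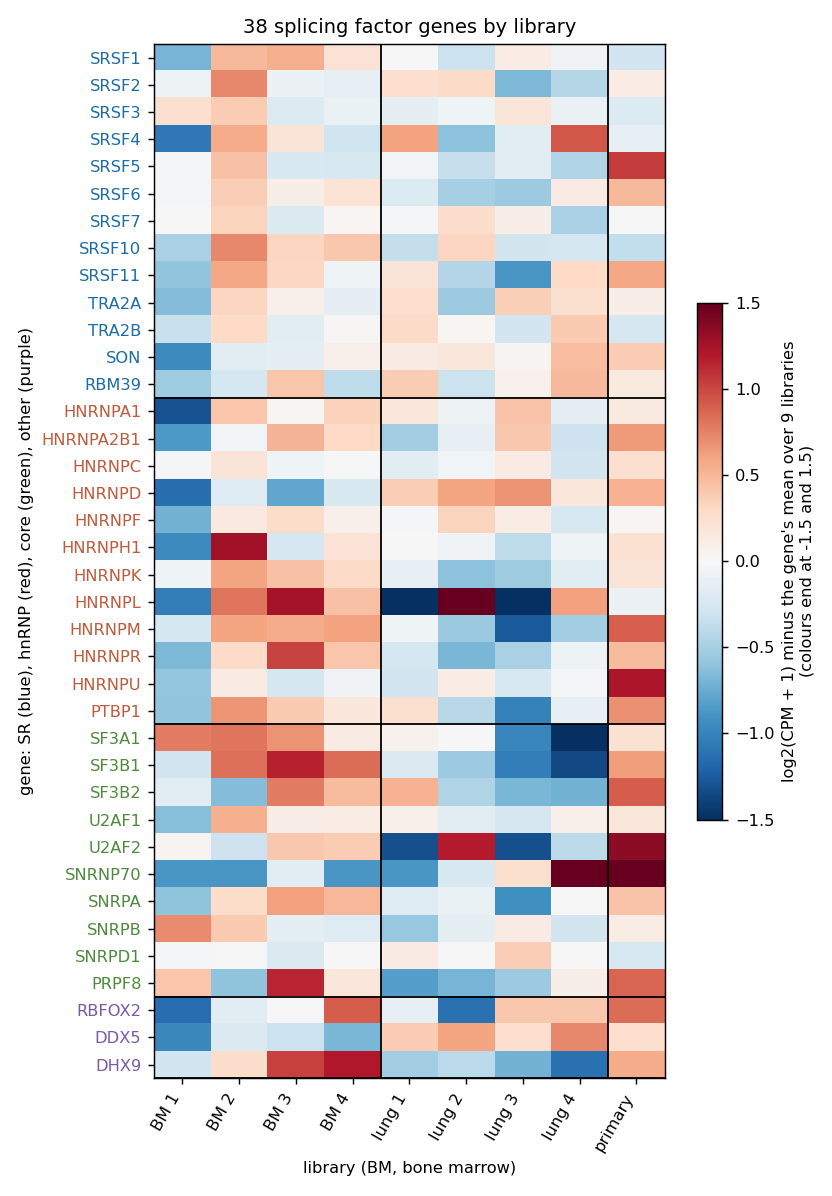
Level of each of 38 genes (rows, by set) in each library (columns), as log2(CPM + 1) minus the gene's mean over the 9 libraries, with colours ending at -1.5 and 1.5. Bone marrow replicate 1 is blue for most hnRNPs and the primary library is red for most core proteins, where 9 of 10 had a metastasis minus primary log2 fold change below 0.

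The comparison of bone marrow with lung asks how the same tumour cells differ between 2 sites of spread. In it the branch site protein SF3B1 and the helicase DHX9 were at higher levels in bone marrow, and the helicase DDX5 and the RNA-binding protein HNRNPD at lower levels, but none of the 38 genes passed edgeR's quasi-likelihood test. That test called 0 members at an adjusted p below 0.05, while it called 1 of 17073 genes, or 0.00586%. At an unadjusted p below 0.05 it held 8 members, against 10.2% of all genes, of which 6 were higher in bone marrow, against 6.33% of all genes, and 2 were lower, against 3.88%. DESeq2 called 4 of the 38, SF3B1, DHX9, DDX5 and HNRNPD, where it called 3.37% of all genes given an adjusted p, and limma voom called 0, against 0.0351% of all genes. The edgeR and DESeq2 fits use the same counts, so the one adds no separate support to the other.

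SF3B1, the largest subunit of the SF3B complex, holds the branch site for the U2 particle (chromosome 2, 197389784 to 197435091, hg38). It was at 259.8, 563.1, 705 and 565 CPM in bone marrow replicates 1 to 4, at 272, 216, 153 and 123 CPM in lung replicates 1 to 4 and at 491 CPM in the primary library. The sites overlapped through bone marrow replicate 1 alone, which lay below lung replicate 1. Bone marrow minus lung came to 1.45 ± 0.36 on the log2 scale (fold change ± SE), at an edgeR adjusted p of 0.331 and a DESeq2 adjusted p of 0.0170. Without bone marrow replicate 1 the difference was 1.69. DHX9, an RNA helicase also known as RNA helicase A (chromosome 1, 182839369 to 182887751, hg38), was at 57.6, 85.3, 145 and 164 CPM in bone marrow, 48.7, 53.1, 42.8 and 32.1 in lung and 104 in the primary library. Its lowest bone marrow value lay just above its highest lung value. The log2 fold change was 1.35 ± 0.37 (edgeR adjusted p 0.370, DESeq2 adjusted p 0.0291).

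DDX5, a helicase that unwinds RNA at splice sites and acts with transcription factors (chromosome 17, 64499616 to 64508199, hg38), was at 66.0, 111, 103 and 80.2 CPM in bone marrow, 169, 196, 154 and 215 in lung and 155 in the primary library. All 4 bone marrow libraries lay below all 4 lung libraries. Its log2 fold change was -1.03 ± 0.24 (edgeR adjusted p 0.327, DESeq2 adjusted p 0.00990). HNRNPD, also called AUF1, binds AU-rich elements and directs the decay of the messages that carry them (chromosome 4, 82352498 to 82374503, hg38). It was at 34.8, 67.4, 44.6 and 66.1 CPM in bone marrow, 100.2, 117, 124 and 87.3 in lung and 111 in the primary library, again with no overlap between the sites. Its log2 fold change was -1.01 ± 0.29 (edgeR adjusted p 0.381, DESeq2 adjusted p 0.0391). For both genes the primary library lay with the lung libraries.

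**Figure D2:**
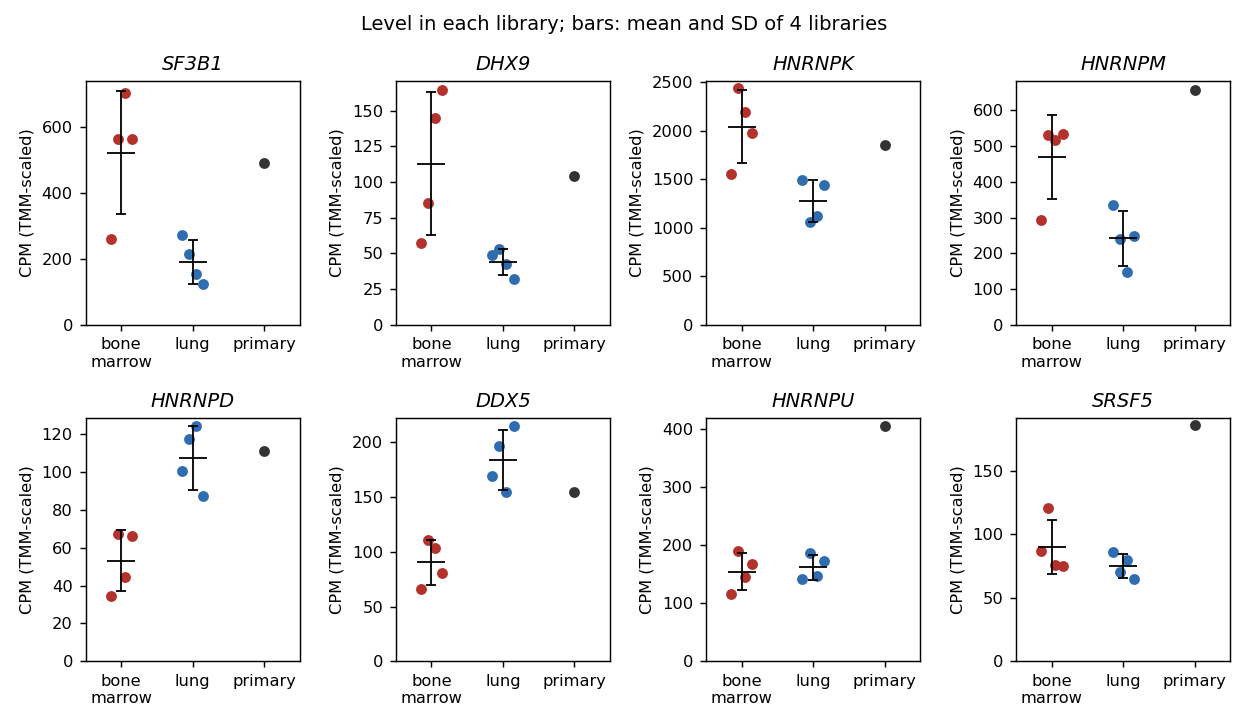
CPM of 8 genes in each library (points), by group, with the mean and SD of the 4 libraries of a site as bars. SF3B1, DHX9, HNRNPK and HNRNPM are higher in most bone marrow than lung libraries, HNRNPD and DDX5 are lower in all 4, and HNRNPU at 405 CPM and SRSF5 at 185 CPM are highest in the primary library.

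The promoters of the members that DESeq2 called in either comparison are shown because these are the genes on which the results turn. HNRNPU is among them for the comparison with the primary tumour described further on. Each sequence runs from 250 bases before to 50 bases after the gene's start, read 5′ to 3′ on the gene's own strand, with the start that RefSeq gives (GRCh38.p14). GENCODE 29, the source of the gene spans above, places some starts elsewhere, so the windows of DDX5 and HNRNPD lie inside those spans. Capitals mark CCGGAAGT or its reverse complement, the kind of site bound by ETS factors, the family to which FLI1 belongs.
SF3B1 (chr2:197434979-197435278, minus strand): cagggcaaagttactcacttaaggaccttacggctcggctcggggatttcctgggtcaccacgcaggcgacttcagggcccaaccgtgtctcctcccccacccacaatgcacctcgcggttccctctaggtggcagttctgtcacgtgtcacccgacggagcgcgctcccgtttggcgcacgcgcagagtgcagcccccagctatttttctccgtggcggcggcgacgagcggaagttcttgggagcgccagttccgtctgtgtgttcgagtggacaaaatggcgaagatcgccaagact
DHX9 (chr1:182839097-182839396, plus strand): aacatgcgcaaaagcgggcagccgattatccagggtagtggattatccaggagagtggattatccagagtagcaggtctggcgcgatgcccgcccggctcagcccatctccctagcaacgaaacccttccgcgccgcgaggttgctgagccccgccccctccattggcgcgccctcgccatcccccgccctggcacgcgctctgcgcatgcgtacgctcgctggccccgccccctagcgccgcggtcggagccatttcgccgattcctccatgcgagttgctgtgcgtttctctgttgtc
HNRNPD (chr4:82373942-82374241, minus strand): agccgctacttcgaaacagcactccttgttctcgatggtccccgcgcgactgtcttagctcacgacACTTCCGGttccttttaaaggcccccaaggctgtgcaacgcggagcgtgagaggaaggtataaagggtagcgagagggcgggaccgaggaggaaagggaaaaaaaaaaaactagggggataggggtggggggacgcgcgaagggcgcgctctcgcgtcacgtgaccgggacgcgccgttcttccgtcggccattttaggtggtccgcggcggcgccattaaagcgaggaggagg
DDX5 (chr17:64506589-64506888, minus strand): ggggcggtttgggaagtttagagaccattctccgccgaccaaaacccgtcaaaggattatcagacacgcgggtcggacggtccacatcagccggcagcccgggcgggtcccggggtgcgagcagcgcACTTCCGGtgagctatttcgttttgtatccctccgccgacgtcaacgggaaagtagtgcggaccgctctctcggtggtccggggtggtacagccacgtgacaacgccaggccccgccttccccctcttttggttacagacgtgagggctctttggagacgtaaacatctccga
HNRNPU (chr1:244864494-244864793, minus strand): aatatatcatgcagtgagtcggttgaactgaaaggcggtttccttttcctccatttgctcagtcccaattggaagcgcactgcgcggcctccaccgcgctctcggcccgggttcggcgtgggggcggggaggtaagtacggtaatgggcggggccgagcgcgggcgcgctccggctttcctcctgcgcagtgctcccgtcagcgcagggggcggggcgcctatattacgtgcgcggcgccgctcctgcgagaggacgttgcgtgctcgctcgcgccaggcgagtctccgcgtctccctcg
These promoters are rich in CpG, with 28, 32, 33, 30 and 40 CpG in the order shown. The median was 30 over the 32 member promoters that were matched and 14 over 35116 promoters of the table. Of the 5 shown, HNRNPD and DDX5 hold 1 match each to CCGGAAGT, which starts 184 and 123 bases before the gene's start. Over the members, 8 of 32 promoters hold it, or 25.0%, against 4.14% of all promoters of this length and 17.95% of 117 promoters of the wider splicing genes described further on. The other members are SF3A1, SF3B2, SNRPB, SRSF4, SRSF5 and U2AF2. The run TCTCGCGA, the start of a palindrome common in promoters, was found in those of HNRNPK and SRSF10 (6.25%, against 1.15% of all). The short run GGAAGGAA repeats GGAA, the unit of the microsatellites that EWSR1-FLI1 binds. It was found in the promoters of SRSF1 and SRSF7 (6.25%, against 3.67% of all). Both strands were searched and the motifs do not overlap in the promoters shown. A match describes the letters only, and the full table also holds promoters of noncoding genes and pseudogenes.

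Among SR and SR-related proteins the sites were close. Of the 13, 8 had a log2 fold change above 0 and 5 below, with a median of 0.13, where the median over all genes tested was 0.00 and over better expressed genes was 0.11. No SR gene had sites that did not overlap, against 5.87% of all genes. SRSF6, a splicing enhancer protein, had the smallest p. It was at 1851, 2445, 2006 and 2180.0 CPM in bone marrow, 1635, 1341, 1297 and 2059 in lung and 2642 in the primary library, and lung replicate 4 lay among the bone marrow libraries. Its log2 fold change was 0.42 ± 0.18 (edgeR adjusted p 0.486). SRSF10, which can repress splicing when it loses its phosphates, came to 0.42 ± 0.28 on the log2 scale (adjusted p 0.611). SON, a scaffold of nuclear speckles, lay on the other side at -0.46 ± 0.26 (adjusted p 0.539), as did the SR-like U2AF partner RBM39 at -0.33 ± 0.28 (adjusted p 0.704). These 3 values depended on single libraries. SRSF10 was 0.63 without bone marrow replicate 1 and 0.25 without bone marrow replicate 2. SON was -0.27 without bone marrow replicate 1. RBM39 was -0.21 without bone marrow replicate 1, -0.22 without lung replicate 4 and -0.58 without bone marrow replicate 3. SRSF3 and SRSF7, which also take part in RNA export, were nearly level, at 657 ± 126 and 484 ± 76.8 CPM in bone marrow and 602 ± 62.3 and 463 ± 95.6 CPM in lung (SD, n = 4 each). The mean of SRSF1, the founding SR protein, was 474 ± 158 CPM in bone marrow and 392 ± 47.5 in lung. SRSF2, SRSF4 and SRSF11 came to means of 94.5 ± 30.3, 47.3 ± 21.2 and 265 ± 87.3 CPM in bone marrow, against 80.3 ± 26.2, 60.5 ± 28.4 and 222 ± 79.6 CPM in lung. The exon activators TRA2A and TRA2B ranged over 108 to 213 and 313 to 488 CPM in bone marrow, inside or close to their lung ranges of 117 to 219 and 324 to 521 CPM. The median of the set became -0.02 when bone marrow replicate 2 was left out.

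Of the 12 hnRNPs, 8 had a log2 fold change above 0, with a median of 0.21. HNRNPK, which binds C-rich RNA and DNA, was at 1551, 2441, 2193 and 1973 CPM in bone marrow, 1488, 1055, 1122 and 1438 in lung and 1851 in the primary library. Its sites did not overlap, by a narrow margin between bone marrow replicate 1 and lung replicate 1, and its log2 fold change was 0.68 ± 0.19 (edgeR adjusted p 0.373). HNRNPM, a splicing regulator linked to mesenchymal isoforms, was at 294, 532, 517 and 535 CPM in bone marrow, 336, 239, 147 and 248 in lung and 657 in the primary library. Bone marrow replicate 1 lay within the lung range and the other 3 lay well above it (log2 fold change 0.95 ± 0.30, adjusted p 0.414). Without bone marrow replicate 1 HNRNPM came to 1.14. HNRNPR came to 0.74 ± 0.34 (adjusted p 0.486), at 342 ± 151 CPM in bone marrow and 205 ± 38.01 in lung, and its fold change was 0.99 without bone marrow replicate 1 and 0.44 without bone marrow replicate 3. HNRNPH1, which binds G-rich RNA and in some Ewing lines is known to govern the splicing of the fusion transcript, spread from 43.9 to 208 CPM in bone marrow and from 65.9 to 86.1 CPM in lung. HNRNPC, HNRNPF, HNRNPU and HNRNPA2B1 had log2 fold changes between -0.07 and 0.16. PTBP1, the polypyrimidine tract binding protein, was low at 12.2 to 30.5 CPM in bone marrow and 8.85 to 22.4 CPM in lung. The median of the set was 0.49 without bone marrow replicate 1, 0.12 without bone marrow replicate 2, 0.05 without bone marrow replicate 3 and 0.09 without lung replicate 1.

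Core spliceosome genes had the highest median of the 4 sets, at 0.44, with 8 of 10 above 0. SF3A1, a subunit of the SF3A complex of the U2 particle, was at 33.6, 34.5, 31.4 and 21.1 CPM in bone marrow, 20.1, 19.3, 9.26 and 5.23 in lung and 22.8 in the primary library. Every bone marrow library lay above every lung library, the closest pair being bone marrow replicate 4 and lung replicate 1. Its log2 fold change was 1.16 ± 0.51 (edgeR adjusted p 0.486). PRPF8 was at 26.3, 12.4, 44.3 and 22.0 CPM in bone marrow and 10.6, 11.6, 13.1 and 20.7 CPM in lung, where bone marrow replicate 2 lay within the lung range (log2 fold change 0.91 ± 0.48, adjusted p 0.510, and 0.53 without bone marrow replicate 3). The Sm ring proteins SNRPB and SNRPD1 went apart in sign, SNRPB at 695 ± 214 CPM in bone marrow and 512 ± 102 in lung, and SNRPD1 at 478 ± 34.3 CPM in bone marrow and 544 ± 68.5 in lung. U2AF1 ranged over 251 to 569.5 CPM in bone marrow and 328 to 414 CPM in lung, and the U1 protein SNRPA over 34.3 to 81.6 CPM in bone marrow and 27.4 to 52.6 CPM in lung. Outside the core set, RBFOX2, which reads GCAUG elements near exons, ranged over 15.8 to 68.9 CPM in bone marrow and 16.1 to 48.1 CPM in lung. Over single libraries left out, the median of the core set ran from 0.30 to 0.53.

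Taking all 38, 26 had a log2 fold change above 0, against 49.9% of all genes and 58.1% of better expressed genes. The median was 0.24 and became 0.07 without bone marrow replicate 2. The sites did not overlap for 5 members, HNRNPK, SF3A1 and DHX9 higher and HNRNPD and DDX5 lower in bone marrow, where they did not overlap for 5.87% of all genes, 2.81% higher and 3.06% lower in bone marrow. Among better expressed genes the share was 7.8%, with 4.46% higher and 3.35% lower. Without bone marrow replicate 1 the count was 12, of which 10 were higher in the other 3 bone marrow libraries (SRSF1, SRSF10, HNRNPK, HNRNPM, HNRNPR, SF3A1, SF3B1, U2AF1, SNRPA and DHX9) and 2 were lower. The share of all genes was then 13.6%, with 6.6% higher and 6.97% lower. That library was the lowest of its site for 26 of the 38 members, so leaving it out favours members higher in bone marrow. The split of 10 and 2 is therefore no separate result. Mitochondrial ribosomal RNA also differed between the sites, at 0.0956 to 0.218% of reads in bone marrow and 0.359 to 0.491% in lung. Library totals did not overlap either, at 14160000 to 17910000 estimated counts in bone marrow and 11550000 to 13220000 in lung. Nor did reads assigned to human, at 77.59 to 79.1% in bone marrow and 72.67 to 77.34% in lung. Unaligned reads came to 18.94 to 20.32% in bone marrow and 20.37 to 24.65% in lung. These measures cannot be told apart from the site, and their part in these differences was not tested.

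**Figure D3:**
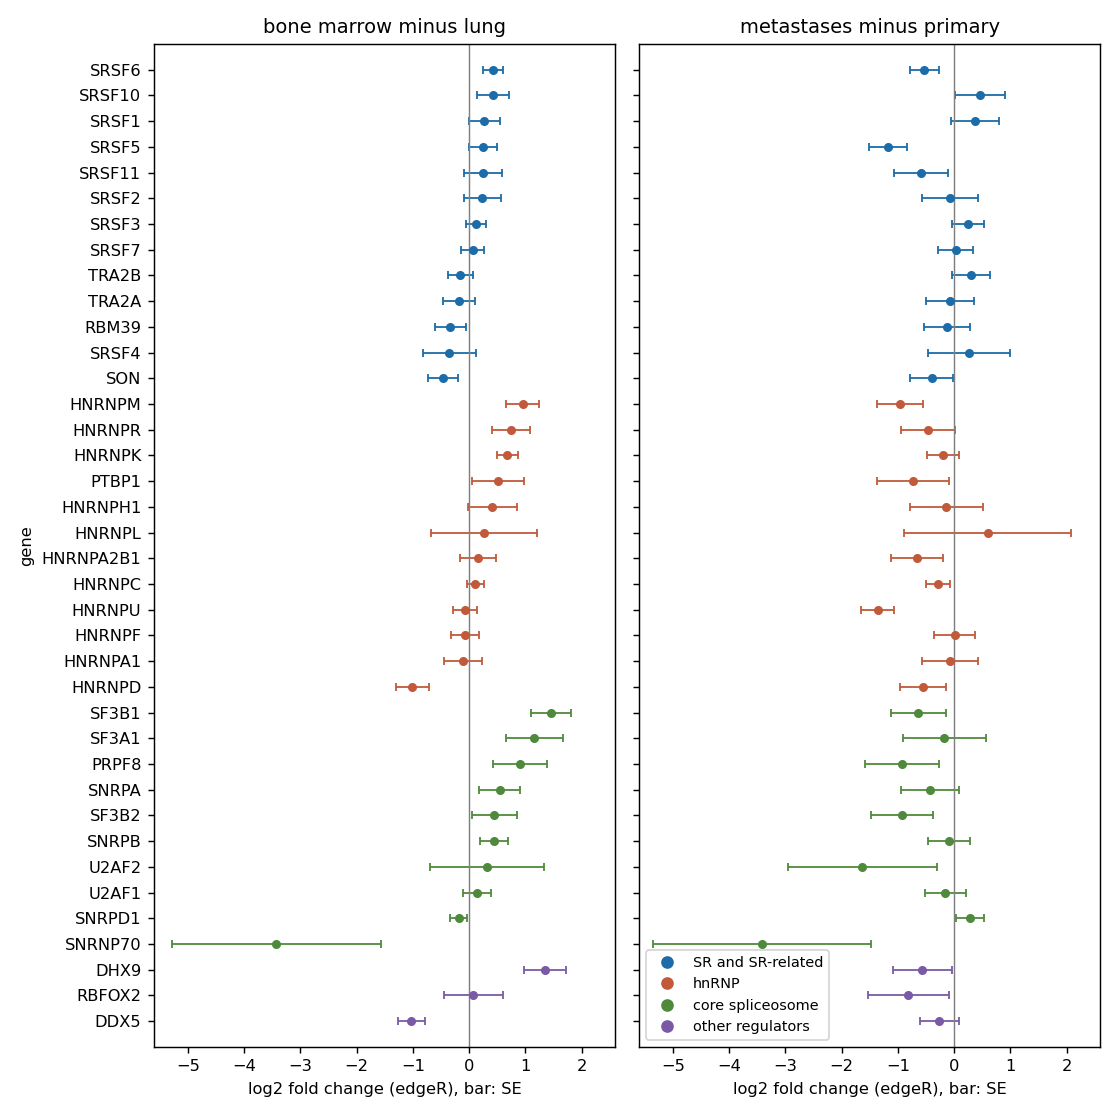
Log2 fold changes with SE (edgeR) for the 38 genes in bone marrow minus lung (left) and metastases minus primary (right), coloured by set and ordered within each set by the left panel. SF3B1 at 1.45 and DDX5 at -1.03 lie on opposite sides at left, and 29 of 38 points lie below 0 at right.

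The metastases were then compared with the primary library, which has no replicate. With a single library on one side, the test assumes that it varies as the 8 others do. The scaffold hnRNP HNRNPU and the SR protein SRSF5 had the smallest p, both lower in metastases, and 29 of 38 members had a log2 fold change below 0. Over all genes the median was 0.17 and 57.5% lay above 0, as did 57% of better expressed genes, so most members lay on the other side from most genes. In edgeR 0 of 38 members passed, as did 0% of all genes, and 3 members had an unadjusted p below 0.05, against 4.79% of all genes. All 3 were lower in metastases, as were 3.03% of all genes, while 1.75% of all genes and 0 members were higher. DESeq2 called HNRNPU alone among the members, where it called 0.73% of all genes, and limma voom called 0 members, against 0.281% of all genes. The medians were -0.07 for SR and SR-related proteins, -0.37 for hnRNPs, -0.53 for core spliceosome proteins and -0.56 for the 3 other regulators.

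HNRNPU, also called scaffold attachment factor A, binds chromatin-associated RNA and helps to organise the nucleus (chromosome 1, 244840638 to 244864560, hg38). It was at 115, 189, 144 and 167 CPM in bone marrow, 142, 187, 147 and 172 in lung and 405 in the primary library. The metastasis libraries of both sites lay together, and the primary library lay above them by more than their whole range. The log2 fold change of metastases minus primary came to -1.36 ± 0.29, at an edgeR adjusted p of 0.525, a DESeq2 adjusted p of 0.0373 and a limma voom adjusted p of 0.0862. SRSF5 was at 87.1, 120.3, 75.8 and 75.0 CPM in bone marrow, 86.1, 69.9, 79.5 and 64.7 in lung and 185 in the primary library, with the same arrangement. Its log2 fold change was -1.18 ± 0.34 (edgeR adjusted p 0.672, DESeq2 adjusted p 0.134). For HNRNPM, the third member with an unadjusted p below 0.05, the primary library was again the highest, and its log2 fold change was -0.96 ± 0.40 (edgeR adjusted p 0.9999).

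The primary library lay above all 8 metastasis libraries for 11 of the 38 genes, where it did so for 10.1% of all genes. These were the SR proteins SRSF5, SRSF6 and SRSF11, the hnRNPs HNRNPA2B1, HNRNPC, HNRNPM, HNRNPU and PTBP1, and the core proteins SF3B2, U2AF2 and SNRNP70. HNRNPA2B1, which sorts RNA and reads some of its marks, ranged over 166 to 433 CPM in bone marrow and 212 to 402 CPM in lung, and was at 474 CPM in the primary library (log2 fold change -0.66 ± 0.46). SF3B2 ranged over 82.4 to 222 CPM in bone marrow and 79.1 to 187 CPM in lung, and was at 245 CPM in the primary library (-0.93 ± 0.55). HNRNPC, a packaging protein of nascent RNA, had the smallest fold change of the 11, at 919.7 to 1095 CPM in bone marrow, 789 to 1041 in lung and 1146 in the primary library. SF3B1, DHX9, PRPF8 and RBFOX2 had log2 fold changes of -0.64 ± 0.49, -0.56 ± 0.52, -0.93 ± 0.66 and -0.81 ± 0.73. SRSF6, SRSF11 and HNRNPD came to -0.53 ± 0.26, -0.59 ± 0.48 and -0.56 ± 0.41. SRSF3 and SNRPD1 were the 2 members for which the primary library lay below all 8, by small margins. It did so for 7.57% of all genes and 11.8% of better expressed genes. SNRPD1 was at 421 CPM in the primary library, under 427 to 642 CPM in metastases. SRSF10 was the one member given by the smallest p that lay above 0, at a log2 fold change of 0.46 ± 0.44 (edgeR adjusted p 0.9999).

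Alongside this, MALAT1, a noncoding RNA of nuclear speckles, was also highest in the primary library, at 5423 CPM. It was read with 4 other noncoding RNAs, not all of which stay in the nucleus. The summed level of the 5 was 2994 to 5157 CPM in bone marrow, 3865 to 4967 in lung and 6055 in the primary library. Most of it came from MALAT1. The other 4, NEAT1, SNHG1, MEG3 and GAS5, were not highest there, and 2 of the 5 had a log2 fold change above 0 in metastases minus primary. The part of nuclear RNA in the levels of HNRNPU, SRSF5 and the other members was not tested.

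The wider splicing machinery was read from 138 further genes in 6 lists. Among 18 other SR-related genes, 16 had a log2 fold change below 0 in metastases minus primary, with a median of -0.77, and the primary library lay above all 8 others for 10, against 10.1% of all genes. None passed in edgeR, as did 0% of all genes, and 7 had an unadjusted p below 0.05, against 4.79% of all genes. DESeq2 called SRRM1 alone, where it called 0.73% of all genes, and limma voom called 0 of the 18, against 0.281% of all genes. SRRM1, a coactivator that bridges SR proteins at exonic enhancers, was at 118, 58.2, 85.0 and 51.9 CPM in bone marrow, 70.1, 50.8, 28.6 and 33.7 in lung and 289 in the primary library. All 8 metastasis libraries lay far below the primary value. Its log2 fold change came to -2.27 ± 0.48, at an edgeR adjusted p of 0.525 and a DESeq2 adjusted p of 0.0393, with 0.0545 in limma voom. BCLAF1, an RS-rich protein of messenger RNA particles, was at 336 ± 61.2 CPM in bone marrow, 191 ± 67.9 in lung and 700.3 in the primary library (log2 fold change -1.47 ± 0.36). PPIG, a cyclophilin with an RS domain, and PNN, a desmosome and speckle protein, came to -1.33 ± 0.42 and -1.77 ± 0.62. In bone marrow minus lung the same list had 9 genes above and 9 below 0.

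**Figure D4:**
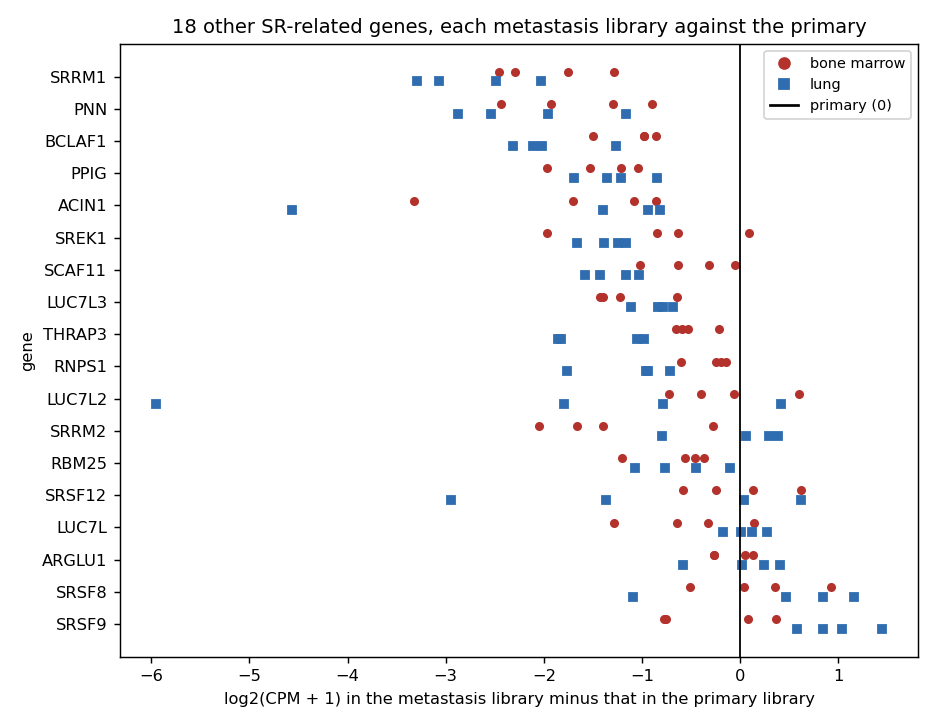
For 18 SR-related genes outside the 38, log2(CPM + 1) in each metastasis library minus that in the primary library, with bone marrow as circles, lung as squares and the primary library as the line at 0. For 10 genes, SRRM1 among them, all 8 points lie left of the line.

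The list of Sm and LSm proteins, the small rings that hold spliceosomal RNAs, mostly lay the other way. Of the 15 genes on the list, 12 had a log2 fold change above 0 in metastases minus primary, against 57.5% of all genes. The list also held GEMIN2 and SMN1, which are not ring proteins, at 0.33 and -0.22. The Sm proteins SNRPB and SNRPD1, at -0.09 and 0.28, were read in the core set and are not counted here. The median was 0.49, against 0.17 over all genes. The primary library lay below all 8 others for 4, against 7.57% of all genes and 11.8% of better expressed genes. It lay above them for 0, against 10.1% of all genes and of better expressed genes. In edgeR 0 of the 15 passed, as did 0% of all genes, and 1 had an unadjusted p below 0.05, against 4.79% of all genes. DESeq2 and limma voom called 0, against 0.73% and 0.281% of all genes. LSM4 was at 219.8 ± 41.8 CPM in bone marrow, 229.5 ± 12.7 in lung and 135 in the primary library (0.74 ± 0.32), and LSM5 came to 0.70 ± 0.36. The regulator RBM4 and the small SF3B subunit SF3B5 were the other 2 with the smallest p above 0, at 0.77 ± 0.36 and 0.61 ± 0.29. The U1, U2 and branch site list had 8 of 20 above 0 and a median of -0.07, and the list of tri-snRNP, Prp19 complex and later steps had 7 of 35 above 0 and a median of -0.20.

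Between bone marrow and lung, the list of tri-snRNP and later steps had 26 of 35 above 0 with a median of 0.51, and the U1, U2 and branch site list 14 of 20 with a median of 0.26. In edgeR none of these genes passed. DESeq2 called PRPF6 of the former list and PUF60, SF3B3 and PHF5A of the latter, where it called 3.37% of all genes. PUF60, which helps U2AF at weak 3′ splice sites, was at 144, 122, 162 and 120.1 CPM in bone marrow, 67.2, 76.4, 68.6 and 60.8 in lung and 87.3 in the primary library. The sites did not overlap, and the log2 fold change was 1.01 ± 0.22 (edgeR adjusted p 0.305, DESeq2 adjusted p 0.000157). SF3B3, a partner of SF3B1 in its complex, likewise lay higher in bone marrow without overlap, at 135 ± 41.0 CPM against 63.2 ± 10.9 CPM in lung (log2 fold change 1.10 ± 0.30, edgeR adjusted p 0.356, DESeq2 adjusted p 0.0274). PHF5A, a small subunit of the same complex, lay the other way, at 151 ± 12.9 CPM in bone marrow and 258 ± 41.5 in lung (-0.77 ± 0.20, edgeR adjusted p 0.347, DESeq2 adjusted p 0.00928), so the subunits around SF3B1 did not share a direction. SRPK2, a kinase of SR proteins, came to 1.20 ± 0.30, HNRNPH2 to 0.95 ± 0.24, SRSF9 to -1.22 ± 0.37, HNRNPAB to -0.74 ± 0.28 and LSM7 to -0.55 ± 0.25. Of these, DESeq2 called SRPK2 and HNRNPH2 alone.

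Some members were near the limit of detection. SNRNP70, the U1 protein that contacts the 5′ splice site complex, was listed at 0, 0, 9.05 and 0 estimated counts in bone marrow replicates 1 to 4, at 0, 7.97, 13.9 and 73.5 in lung replicates 1 to 4 and at 74.6 in the primary library. U2AF2, the large U2AF subunit that reads the polypyrimidine tract, had 29.7, 25.2, 45.0 and 47.3 estimated counts in bone marrow, 3.00, 86.0, 3.00 and 18.6 in lung and 89.9 in the primary library. Every dividing cell uses both genes, so a value near 0 in these low-input libraries does not show absence. SNRNP70 passed the filter on low counts through single libraries, and its fitted log2 fold change of -3.43 ± 1.86 in bone marrow minus lung became -7.60 without bone marrow replicate 3 and -1.83 without lung replicate 4. HNRNPL, which binds CA-rich RNA, spread from 3.77 to 22.3 CPM in bone marrow and 1.49 to 27.2 CPM in lung.

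Members whose transcripts are rich in G and C tended to be at lower levels. Per kilobase of the longest coding transcript in GENCODE 29, the median level over the 9 libraries was 13.8 CPM per kilobase for the 12 members with a transcript GC of at least 50% and 84.2 CPM per kilobase for the other 26. SNRNP70, at 63.9% GC, and U2AF2, at 61.1%, were the lowest at 0.929 and 0.910 CPM per kilobase, whereas SNRPB, at 57.8%, reached 526 and HNRNPK, at 42.3%, reached 571. Spearman's rho between GC and level per kilobase was -0.50 over the 38 members and -0.21 over 13544 tested genes with a coding transcript. These points share the same 9 libraries and are given as a description. For the differences rho was smaller, at 0.12 for bone marrow minus lung and -0.28 for metastases minus primary over the 38, against -0.10 and 0.14 over the 13544 genes.

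**Figure D5:**
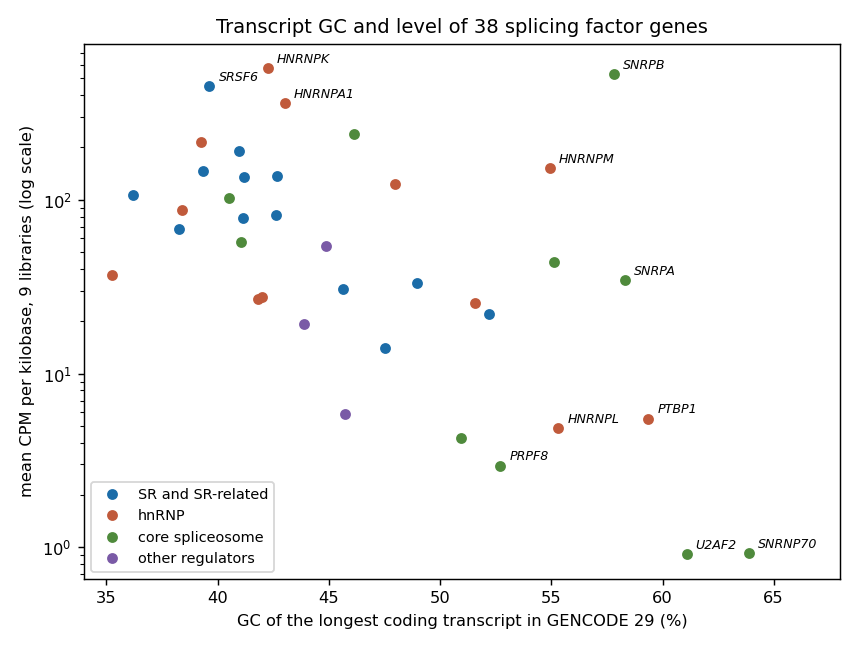
Mean CPM per kilobase over 9 libraries (log scale) against the GC percentage of the longest coding transcript for 38 genes, coloured by set. SNRNP70 and U2AF2 lie at the lower right, while SNRPB keeps a high level at 57.8% GC.

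The spread between libraries of one site was moderate for most members. The median coefficient of variation was 31.4% in bone marrow and 21.4% in lung over the 38, against 35.2% and 37.2% over better expressed genes. The lowest were SNRPD1 at 7.19% and HNRNPC at 8.03% in bone marrow and SRSF3 and HNRNPH1 in lung, at 10.3% and 11.5%. Near-identical copies limit some values. GENCODE 29 annotates U2AF1L5, a copy of the 3′ splice site reader U2AF1, on the same chromosome, but the deposited counts hold no row of that name. The sources used here do not give how reads from this copy were treated. HNRNPA1 has many processed copies, of which HNRNPA1L2 was at 0.915 to 14.9 CPM in bone marrow, 0 to 12.9 in lung and 13.7 in the primary library.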

How the data were processed

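RNA was measured in 9 libraries prepared from little RNA by template switching (per the labels' protocols). The authors deposited estimated counts per gene symbol, with no scaling. The submitters' processing notes name Trim Galore and Salmon, without versions, and the build hg38. A second deposited table gives the percent of reads assigned to each species and, per counting category, a fraction of reads. How these were made, and the strand setting, are not given in the sources used here.

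Estimated counts were rounded. The 12 reporter and drug-selection rows were left out of library sizes and tests (at most 0.0133% of counts). Genes were filtered with filterByExpr, leaving 17073, scaled by TMM and fitted for all 9 libraries with 3 groups in edgeR 4.0.16, and calls needed a two-sided adjusted p (Benjamini-Hochberg) below 0.05. The SE is the absolute log2 fold change over the square root of F. DESeq2 1.42.0, limma 3.58.1 voom with quality weights, other scalings and filters, a replicate block, a fit to metastasis libraries only and leaving out single metastasis libraries were tried. The script was tested on simulated data. All 36 pairs of libraries differed by more than sampling noise (lowest chi-square 87.1 times its degrees of freedom).

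The members and gene lists were chosen with earlier results of these data known. Fold changes are given for up to 4 members per set (2 of the other regulators) with the smallest unadjusted p in each comparison and for 4 genes of the wider lists in each direction; a few more are given by their levels or range. Gene positions are from GENCODE 29 and promoters from RefSeq (GRCh38.p14), which matched 32 of 38 members.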

Additional observations from a re-analysis of the deposited data

Results flagged for a closer look

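For each of the 38 genes and each site, the highest and lowest of the 4 libraries were checked for a gap to the nearest other library that, as a share of the whole range, passed Dixon's 95% critical value, which chance gives in about 1 in 20 groups. Of 76 groups, 7 met this. In bone marrow, SRSF2, an SR protein that also acts in transcription, was at 139.9 CPM in replicate 2, against 78.1 to 80.2 CPM in the others. HNRNPM was at 293.6 CPM in replicate 1, against 517 to 535 CPM, and SNRPD1 was at 426.5 CPM in replicate 3, against 488 to 498 CPM. SNRNP70 was at 0.625 CPM in replicate 3 and listed at 0 in the others. With 0 in all the others the gap is the whole range, so any value above 0 meets the rule. In lung, SRSF10 was at 448 CPM in replicate 2, against 278 to 298 CPM, and TRA2A, an activator of exons, was at 117.2 CPM in the same library, against 202 to 219 CPM. SF3B2 was at 187.1 CPM in lung replicate 1, against 79.1 to 94.4 CPM. The flagged values fall in 5 different libraries.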

How the results depend on the processing

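No alternative run turned the direction of a fold change that is given with an SE. HNRNPC, HNRNPF, HNRNPU and HNRNPA2B1, whose bone marrow minus lung values near 0 are given as a range, were not followed one by one. Members called in bone marrow minus lung came to 4 with DESeq2 and to 0 with every other alternative, and in metastases minus primary to 1 with DESeq2 and to 0 otherwise. Over all genes, calls in bone marrow minus lung came to 468 with DESeq2, 6 with limma voom, 3 with at least 5 CPM in at least 4 libraries and 0 with the replicate block, from 0 to 0 over single libraries left out and 0 without bone marrow replicate 1 and lung replicate 3 together, an alternative chosen after seeing the data; in metastases minus primary they came to 97 with DESeq2 and 48 with limma voom. Members above 0 ran from 22 to 29 and from 7 to 9 over single libraries left out. The median of the 3 other regulators in bone marrow minus lung ran from -0.37 to 0.35 over libraries left out, and was 0.49 without bone marrow replicate 1 and lung replicate 3 together; that of other hnRNP and splicing regulators was then 0.17. The median of the Sm and LSm list ran from -0.23 to 0.18 in bone marrow minus lung. In metastases minus primary it ran from 0.27 to 0.55, and was 0.32 with limma voom and 0.20 without both libraries. Members whose sites did not overlap ran from 5 to 12, and members with the primary library highest from 11 to 13, over libraries left out. Leaving out a library makes both easier to meet for any gene. The 12 were reached without bone marrow replicate 1, where the sites did not overlap for 13.6% of all genes, against 5.87% with all libraries. For the primary library highest, the share of all genes is given with all libraries only, at 10.1%. Same-numbered bone marrow and lung libraries did not deviate together (correlations -0.03 to 0.02, and 0 of 4 bone marrow libraries correlated best with their own number), so the numbers were not taken as pairs; with the replicate block the median of the 38 was 0.19, and with library size alone as the scaling it was 0.13. The cause of these changes was not tested. SNRNP70 and U2AF2 rest on the fewest counts of the 38, so their values are the least precise.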

Other observations

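Among 41 other hnRNPs and splicing regulators that passed the filter, 28 had a log2 fold change below 0 in metastases minus primary, with a median of -0.28. The primary library was the highest of the 9 for 9 of them, against 10.1% of all genes. In edgeR 0 passed, as did 0% of all genes, and 2 had an unadjusted p below 0.05, against 4.79% of all genes. DESeq2 called NOVA1, a neuronal splicing factor, where it called 0.73% of all genes. Calls by limma voom came to 0, against 0.281% of all genes. The 9 include SFPQ, NONO and MATR3, chosen after their values were seen. The paraspeckle proteins SFPQ and NONO pair with each other. SFPQ was at 158 ± 25.4 CPM in bone marrow, 172 ± 53.0 in lung and 279 in the primary library (SD, n = 4 each). NONO was at 487 ± 148 CPM in bone marrow, 452 ± 34.3 in lung and 626 in the primary library. MATR3, a nuclear matrix protein, was at 443 ± 161 CPM in bone marrow, 314 ± 77.2 in lung and 643 in the primary library. In bone marrow minus lung the same list had 18 of 41 above 0 and a median of -0.05.

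The 8 kinases that phosphorylate SR proteins had 6 above 0 in bone marrow minus lung and a median of 0.48, and 4 above 0 in metastases minus primary. In edgeR 0 passed in either comparison, with 2 and 0 at an unadjusted p below 0.05, against 10.2% and 4.79% of all genes. Calls by limma voom came to 0 in both, against 0.0351% and 0.281% of all genes. SRPK2 was at 175 ± 49.5 CPM in bone marrow, 76.3 ± 20.3 in lung and 104 in the primary library, with no overlap between sites. DESeq2 called it in bone marrow minus lung (adjusted p 0.0149), where it called 3.37% of all genes. CLK1, a nuclear kinase picked once its values were known, had 69.8 ± 23.8 CPM in bone marrow, 62.2 ± 9.56 in lung and 38.8 in the primary library, where the primary library was the lowest of the 9.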
